A study of Mus musculus with 6 samples.

Results

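The 10 genes described here are H19, Igf2, Cdkn1c, Peg3, Mest, Plagl1, Grb10, Igf2r, Nnat and Ndn, imprinted growth genes that lie outside the Dlk1-Dio3 locus. They were taken by name from the 23337 genes of the count table, and all 10 passed the filter on low counts, as did 13754 genes in all. Cardiomyocytes (CMs) came from wildtype mice injected at postnatal day 1 (P1) with AAV9-cTNT-SRF-2A-GFP (SRF-OE) or AAV9-cTNT-GFP (GFP), each at 5e8 viral genomes per g. The cardiac troponin T promoter (cTNT) drives the transgene in CMs, the low dose transduces a mosaic of cells, and GFP+ cells were sorted at P14 from hearts digested with collagenase. Control CMs therefore carry a virus and GFP as well, and the mice were on a mixed genetic background. The question of the comparison was how extra SRF, a transcription factor that binds the CArG box and drives muscle and immediate early genes, alters the transcriptome of maturing CMs.

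Imprinted genes are transcribed mainly from the copy inherited from 1 parent. Many of those that promote fetal growth come from the father's copy, such as Igf2, and many that restrain it from the mother's copy, such as Cdkn1c, H19 and Igf2r. As a class they are high in the fetus and fall in many organs, the heart among them, as growth slows after birth. The read counts sum the 2 parental copies and say nothing of which was transcribed.

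The labels list 3 libraries in each of the 2 groups, but gene lengths stand under the heading of SRF-OE replicate 1, so 5 libraries were compared, with total counts from 14137433 to 23159631. Levels are CPM, each count divided by its library's total and TMM factor from edgeR. Srf itself was at 360 and 748 CPM in SRF-OE replicates 2 and 3, and at 67.2 and 85.0 CPM in GFP replicates 2 and 3. The library labelled GFP1 had 338 CPM, which goes against its label, so each result is given for all 5 libraries (5-library comparison) and for the 4 that remain when it is left out (4-library comparison). Srf had a log2 fold change of 1.76 (standard error, SE, 0.71, edgeR quasi-likelihood adjusted p = 0.36) in the 5-library comparison. It was 2.87 in the 4-library comparison, a description only, since the library left out was picked by its Srf level. For the same reason, the calls and adjusted p values of the 4-library comparison are descriptions for all genes below. This bears most on genes that follow Srf over the libraries. The headings themselves are in doubt: gene symbols stand under a chromosome heading and lengths under that of SRF-OE replicate 1, so all library names may be displaced by 1 column. The 5 count columns would then hold 3 SRF-OE and 2 GFP libraries, the column headed GFP1 would be an SRF-OE library, and every 5-library mean, fold and overlap below would change. The files do not settle this, and libraries are called by their headings throughout. The 4-library comparison keeps the same 2 groups under either reading, but not the same replicate numbers. The 8 CM markers were abundant in all 5 libraries, with summed levels from 78250 to 133100 CPM. Their sums were 82270 and 78250 CPM in SRF-OE, 90270 CPM in the library labelled GFP1, and 115100 and 133100 CPM in GFP replicates 2 and 3.

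SRF binds the CArG box, so the 250 bases before each annotated start site were searched for it. RefSeq windows (GRCm38.p6) matched 8 of the 10 genes, with 14 windows in all. An exact box was found in 1 of the 8 genes, Igf2, against 1.48% of the 9740 tested genes that have a window. Genes with more windows have more room for a match, and by window it was in 1 of the 14, against 1.47% of all 32851 windows. The Igf2 window with the box and the Grb10 window with a box of 1 mismatch are shown because they hold the only matches among the 8 genes with a window, and the Ndn window because Ndn had a similar level of difference to Igf2 without any such match. Capitals mark the exact box of Igf2 and the form with 1 mismatch of Grb10. The Igf2 window also holds a form with 1 mismatch near its 5′ end, left in lower case. Each sequence reads 5′ to 3′ on the gene's strand and ends at the base before the start site. Igf2 and Grb10 are on the minus strand and Ndn on the plus strand.
Igf2, chr7:142661272-142661521: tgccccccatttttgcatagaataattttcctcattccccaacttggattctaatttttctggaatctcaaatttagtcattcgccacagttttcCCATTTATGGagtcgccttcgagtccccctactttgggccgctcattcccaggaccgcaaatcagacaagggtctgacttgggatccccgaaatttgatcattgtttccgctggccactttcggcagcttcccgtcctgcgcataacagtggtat
Grb10, chr11:12027972-12028221: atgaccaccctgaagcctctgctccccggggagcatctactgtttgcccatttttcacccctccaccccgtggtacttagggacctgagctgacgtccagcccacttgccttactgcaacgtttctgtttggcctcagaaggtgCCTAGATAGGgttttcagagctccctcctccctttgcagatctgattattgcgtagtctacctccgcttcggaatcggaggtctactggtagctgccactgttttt
Ndn, chr7:62348027-62348276: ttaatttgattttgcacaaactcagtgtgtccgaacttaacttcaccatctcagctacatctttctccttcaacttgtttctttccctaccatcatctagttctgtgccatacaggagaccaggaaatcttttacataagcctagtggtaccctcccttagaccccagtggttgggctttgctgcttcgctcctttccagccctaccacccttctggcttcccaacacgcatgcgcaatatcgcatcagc
The Igf2 box starts 155 bases before its start site, in 1 of the 4 windows of that gene, and the other 3 hold neither the box nor a form with 1 mismatch. The Grb10 near match starts 106 bases before its start site, in 1 of 2 windows. With 1 mismatch allowed, 2 of the 8 genes had a match, against 18.1% of the tested genes. The box reads as a box on either strand, so each was counted once. The letters GGGGCCCC were in a window of Peg3 and in those of 1.41% of the tested genes, and TATAAA, searched on both strands, was in the windows of 0 of the 8 genes and in those of 8.18% of the tested genes. The windows shown lie within the bounds given here for their genes. For the Igf2 and Ndn windows shown, no GENCODE transcript starts within 5 bases of the RefSeq start site. A match here is a run of letters, not a measured site, and gene-level counts do not say which start site was used.

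Over the 10 genes, Igf2 and Ndn were higher in both SRF-OE libraries than in every GFP library, and Grb10 was lower. With the 5 libraries as labelled, edgeR called 0 of the 10 genes, and it called 0% of all genes in either direction. At an unadjusted p under 0.05, Igf2 and Ndn were higher, where 6.35% of all genes were, and Grb10 was lower, where 7.59% were. Groups that did not overlap were seen for the same 3 genes, against 16.1% of all genes higher and 17.3% lower. In the 4-library comparison, Igf2 and Cdkn1c were called higher and no member lower, where 1.98% of all genes were called higher and 0.97% lower. These calls are descriptions only, since the library left out was picked by its Srf level. In that comparison the groups did not overlap for H19, Igf2, Cdkn1c and Ndn, all higher, and for Peg3, Grb10 and Igf2r, all lower, against 30.8% and 30.2% of all genes. The median log2 fold change of the 10 genes was 0.55 in the 5-library and 0.59 in the 4-library comparison, beside 0.03 and 0.04 over all genes tested, and it was -0.05 without SRF-OE replicate 2. In both fits 7 of the 10 had a positive log2 fold change, and 53.3% and 53.2% of all genes did.

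**Figure D1:**
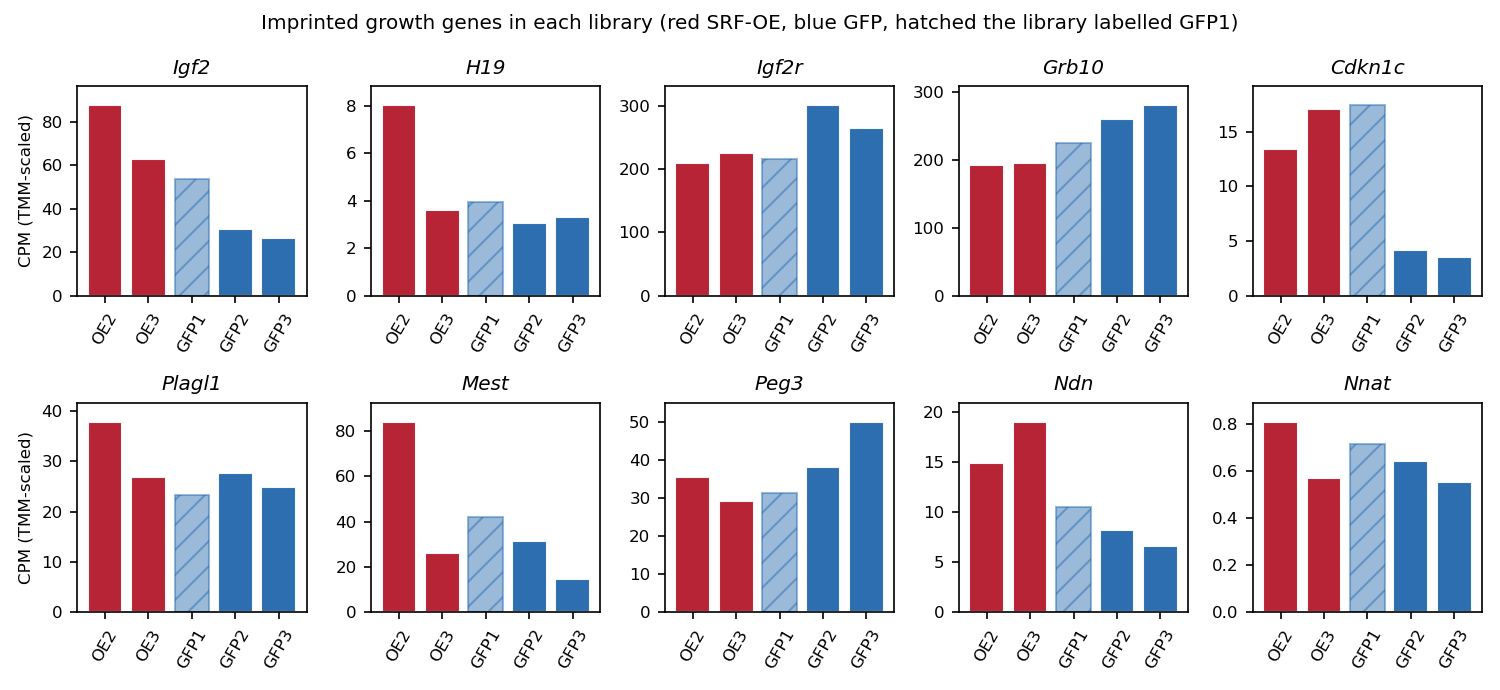
Level of each of the 10 genes (y axis, TMM-scaled CPM from 0, a scale per gene) in each library (x axis, OE for SRF-OE), 1 bar per library. Igf2 runs from 26.5 to 87.7 CPM and Cdkn1c from 3.55 to 17.4 CPM, and the library labelled GFP1 has the highest Cdkn1c bar.

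Igf2 encodes insulin-like growth factor 2, the main fetal growth ligand of the family, and lies on chromosome 7 of GRCm38 from 142650766 to 142666816. SRF-OE replicates 2 and 3 had 87.7 and 62.7 CPM of it. It was at 30.6 and 26.5 CPM in GFP replicates 2 and 3, and at 53.5 CPM in the library labelled GFP1. Both SRF-OE libraries were above all GFP libraries, and the library labelled GFP1 lay nearer to them than to its own group. SRF-OE averaged 75.2 ± 17.6 CPM (SD, n = 2) against 36.9 ± 14.5 CPM (SD, n = 3) for GFP, which is 2.04-fold. Its log2 fold change was 1.03 (SE 0.32, edgeR quasi-likelihood adjusted p = 0.35) with the 5 libraries. In the 4-library comparison, Igf2 rose by 1.40 on the log2 scale (SE 0.20, edgeR quasi-likelihood adjusted p = 0.047), or 2.63-fold. Its adjusted p ranged from 1.1e-11 to 0.77 over all alternatives, the lowest from edgeR without the library labelled GFP1 and without a count filter. Values under 0.05 came only from fits without that library or with the replicate number as a block, which in effect leaves it out. The annotation places Mir483 and Gm49394 on the same strand within its bounds and Igf2os on the other strand, so reads of these could not be separated with certainty.

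H19 is a long non-coding RNA expressed from the mother's copy beside Igf2, hosts Mir675, and shares enhancers with Igf2. It lies on chromosome 7 from 142575529 to 142578143. It was at 8.03 CPM in SRF-OE replicate 2, from 139 counts, with an exact Poisson 95% interval of 6.75 to 9.48 CPM. SRF-OE replicate 3 had 3.63 CPM (interval 2.89 to 4.49), the library labelled GFP1 3.94 CPM (3.14 to 4.89), and GFP replicates 2 and 3 had 3.07 CPM (2.38 to 3.90) and 3.31 CPM (2.39 to 4.48). These intervals cover counting error only. A single library, SRF-OE replicate 2, stood above the other 4, whose intervals overlapped. The log2 fold change was 0.75 (SE 0.38, edgeR quasi-likelihood adjusted p = 0.40), and 0.07 without SRF-OE replicate 2. With 4 libraries it was 0.87 (SE 0.43, edgeR quasi-likelihood adjusted p = 0.24).

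Per kb of gene length, Igf2 was 6.74 and 10.7 times H19 in SRF-OE replicates 2 and 3. That ratio was 8.37 in the library labelled GFP1 and 6.15 and 4.94 in GFP replicates 2 and 3. The ratio was 8.71 ± 2.79 (SD, n = 2) in SRF-OE and 6.49 ± 1.74 (SD, n = 3) in GFP, and the groups overlapped. Around the 2 genes on chromosome 7, 7 of the 11 genes listed passed the filter, and 0 were called in the 5-library comparison. In the 4-library comparison, Igf2 and Tnnt3 were called higher, and the others were not called. Tnnt3, the fast skeletal troponin T gene, was at 4.85 and 22.6 CPM in SRF-OE, 19.6 CPM in the library labelled GFP1, and at 3 counts and 1 count in GFP replicates 2 and 3. Its neighbours Lsp1 and Mrpl23 were not called. Lsp1 ranged from 18.2 to 23.5 CPM and Mrpl23 from 17.6 to 20.7 CPM over the 5 libraries, with log2 fold changes of 0.20 and 0.01 in the 4-library comparison. Ctsd, a lysosomal protease gene, had -0.26 and Tnni2, the fast skeletal troponin I gene, 0.11.

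Igf2r encodes the receptor that binds IGF2 and carries it to lysosomes, which removes the ligand, and is expressed mainly from the mother's copy. It lies on chromosome 17 from 12682406 to 12769664. It was at 209 and 226 CPM in SRF-OE and at 216 CPM in the library labelled GFP1. GFP replicates 2 and 3 had 301 and 264 CPM. The groups overlapped with the 5 libraries, where its log2 fold change was -0.26 (SE 0.17, edgeR quasi-likelihood adjusted p = 0.48). With 4 libraries it was -0.37 (SE 0.13, edgeR quasi-likelihood adjusted p = 0.13). Airn, the unspliced RNA that silences the father's copy of Igf2r, overlaps it on the other strand and was at 21.4 and 20.4 CPM in SRF-OE, 13.4 CPM in the library labelled GFP1, and 8.02 and 8.99 CPM in GFP replicates 2 and 3. Airn rose by 1.31 on the log2 scale in the 4-library comparison (edgeR quasi-likelihood adjusted p = 0.047) and had 1.04 with the 5 libraries (adjusted p = 0.35). Whether counting used the strand is not given in the sources used here, so reads of the pair could be mixed.

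Set against its clearance receptor per kb, Igf2 was 0.885 and 0.586 times Igf2r in SRF-OE. The ratio was 0.522 in the library labelled GFP1 and 0.214 and 0.211 in GFP replicates 2 and 3. It was 0.736 ± 0.212 (SD, n = 2) in SRF-OE and 0.316 ± 0.179 (SD, n = 3) in GFP, with no overlap between the groups. Against Igf1, the ligand that takes over growth control after birth, the ratio of Igf2 per kb was 5.07 and 2.57 in SRF-OE. It ranged from 2.52 to 4.36 in GFP, so those groups overlapped. Igf1 was at 31.9 and 45.1 CPM in SRF-OE and from 15.8 to 22.7 CPM in GFP. Igf1r, the signalling receptor, was at 32.7 and 38.4 CPM in SRF-OE and at 23.1, 19.4 and 20.0 CPM in GFP replicates 1, 2 and 3. Igf1r per kb was 0.117 and 0.127 times Igf2r in SRF-OE and from 0.0481 to 0.0799 in GFP.

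Grb10 encodes an adaptor that binds the insulin and IGF1 receptors and restrains their signal, and lies on chromosome 11 from 11930508 to 12038683. It was the highest of the 10 genes per kb, at 49.6 CPM per kb in GFP, above 89.6% of the genes tested. It was at 193 and 196 CPM in SRF-OE and at 225, 261 and 281 CPM in GFP replicates 1, 2 and 3. The 2 SRF-OE libraries differed little from each other, and both were below the lowest GFP library. The log2 fold change was -0.40 (SE 0.14, edgeR quasi-likelihood adjusted p = 0.35), or 0.759 of the GFP mean, and -0.47 (SE 0.12, edgeR quasi-likelihood adjusted p = 0.070) in the 4-library comparison. Grb14, a related adaptor that is not imprinted, was at 231 and 171 CPM in SRF-OE and at 271, 353 and 383 CPM in GFP, with a log2 fold change of -0.74 in the 5-library comparison (edgeR adjusted p = 0.35) and -0.87 in the 4-library comparison (edgeR adjusted p = 0.0565).

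Cdkn1c encodes an inhibitor of cyclin-dependent kinases that stops the cell cycle, is expressed from the mother's copy, and lies on chromosome 7 from 143458339 to 143461050. It was at 13.4 and 17.1 CPM in SRF-OE. GFP replicates 2 and 3 had 4.22 and 3.55 CPM, from 92 and 45 counts. The library labelled GFP1 had 17.4 CPM, the highest of the 5 libraries and 4.49 times the mean of the other GFP libraries. With that library the groups overlapped, and the log2 fold change was 0.85 (SE 0.66, edgeR quasi-likelihood adjusted p = 0.56). Without it, Cdkn1c rose by 1.97 on the log2 scale (SE 0.24, edgeR quasi-likelihood adjusted p = 0.042), or 3.92-fold. Its adjusted p ranged from 3e-10 to 0.87 over all alternatives. The pattern of Cdkn1c over the libraries thus followed that of Srf in setting the library labelled GFP1 beside SRF-OE, whereas Igf2 and Ndn were intermediate there.

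Kcnq1ot1, the long non-coding RNA that silences the father's copy of Cdkn1c in the same imprinted domain, was at 84.1 and 88.2 CPM in SRF-OE and at 57.4, 29.1 and 41.6 CPM in GFP replicates 1, 2 and 3. It rose by 1.30 on the log2 scale in the 4-library comparison (edgeR quasi-likelihood adjusted p = 0.047) and had 1.01 with the 5 libraries (adjusted p = 0.35). Phlda2, a restrainer of placental growth, and Ascl2, a placental transcription factor gene, were each at 0.289 CPM or less in all 5 libraries. Among the other cell cycle inhibitors, Cdkn1a was at 137 and 319 CPM in SRF-OE and at 119, 53.4 and 50.8 CPM in GFP. Cdkn1b was at 8.66 and 6.60 CPM in SRF-OE and from 3.79 to 5.79 CPM in GFP. Of 17 inhibitors, cyclins and partners tested, Cdkn1a and Ccnd1 were called higher and none lower in the 4-library comparison. The log2 fold change in that fit was 2.14 (edgeR quasi-likelihood adjusted p = 0.0499) for Cdkn1a and 2.15 (adjusted p = 0.042) for Ccnd1, the gene of cyclin D1. None of the 17 was called in the 5-library comparison, and their median log2 fold change was 0.21 there and 0.20 in the 4-library comparison.

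Plagl1 encodes a zinc finger factor that arrests the cell cycle and is known to regulate other imprinted genes, Igf2, H19 and Cdkn1c among them. It was at 37.9 and 26.9 CPM in SRF-OE and at 23.3, 27.7 and 24.9 CPM in GFP replicates 1, 2 and 3. SRF-OE replicate 2 stood alone above the rest, and SRF-OE replicate 3 lay within the GFP range. The log2 fold change was 0.35 (SE 0.18, edgeR quasi-likelihood adjusted p = 0.41) and 0.30 (SE 0.20, edgeR quasi-likelihood adjusted p = 0.36) in the 4-library comparison. It was 0.09 without SRF-OE replicate 2.

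Mest encodes an enzyme of the hydrolase fold, is expressed from the father's copy in mesoderm, and hosts Mir335 on chromosome 6 (gene from 30723547 to 30748465). Of the SRF-OE libraries, replicate 2 had 84.2 CPM and replicate 3 had 26.1 CPM, a 3.23-fold difference within the group. The GFP libraries had 41.9, 31.5 and 14.7 CPM in replicates 1, 2 and 3. SRF-OE replicate 3 lay inside the GFP range, so the groups overlapped. The log2 fold change was 0.90 (SE 0.56, edgeR quasi-likelihood adjusted p = 0.47), 1.24 in the 4-library comparison (SE 0.59, edgeR quasi-likelihood adjusted p = 0.23), and -0.18 without SRF-OE replicate 2. Copg2, which overlaps Mest on the other strand, was not called, with 31.5 and 32.8 CPM in SRF-OE and 24.7, 43.8 and 45.1 CPM in GFP (log2 fold change -0.23, edgeR adjusted p = 0.69 in the 5-library comparison).

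Peg3 encodes a large zinc finger protein, is expressed from the father's copy, and lies on chromosome 7 from 6703892 to 6730431. It was at 35.6 and 29.4 CPM in SRF-OE and at 31.5, 38.2 and 50.2 CPM in GFP replicates 1, 2 and 3. The highest value was that of GFP replicate 3, and the groups overlapped. Its log2 fold change was -0.30 (SE 0.22, edgeR quasi-likelihood adjusted p = 0.53) and -0.44 (SE 0.19, edgeR quasi-likelihood adjusted p = 0.19) in the 4-library comparison. Peg3 was thus a paternally expressed member with a negative estimate, where Igf2, Mest and Ndn had positive ones.

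Ndn encodes necdin, a MAGE family protein known to slow growth of neurons and other cells, and lies on chromosome 7 from 62346569 to 62350262. It was at 14.8 and 19 CPM in SRF-OE and at 10.5, 8.21 and 6.62 CPM in GFP replicates 1, 2 and 3. The 2 groups did not overlap, and SRF-OE replicate 3 had the highest value, unlike for Igf2, H19 and Mest. SRF-OE averaged 16.9 ± 2.94 CPM (SD, n = 2) against 8.46 ± 1.97 CPM (SD, n = 3) for GFP, which is 2.0-fold. Its log2 fold change of 1.00 (SE 0.25, edgeR quasi-likelihood adjusted p = 0.35) ranked first by p among the 10 genes. With 4 libraries it was 1.19 (SE 0.23, edgeR quasi-likelihood adjusted p = 0.053). Magel2, a related gene of the same imprinted cluster, was at 0.158 CPM or less in every library.

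Nnat encodes neuronatin, a small membrane protein of the endoplasmic reticulum known from brain and fat, and sits within Blcap on the other strand of chromosome 2. It had from 7 to 15 counts a library, which is from 0.552 to 0.808 CPM. The exact Poisson 95% intervals of all 5 libraries overlapped. Their lowest bound was 0.222 CPM, in GFP replicate 3, and their highest 1.36 CPM, in SRF-OE replicate 2. No difference was detectable at this depth (log2 fold change 0.09, standard error 0.47, edgeR quasi-likelihood adjusted p = 0.94). Blcap was at 70.5 and 62.1 CPM in SRF-OE and from 71.4 to 88.1 CPM in GFP.

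**Figure D2:**
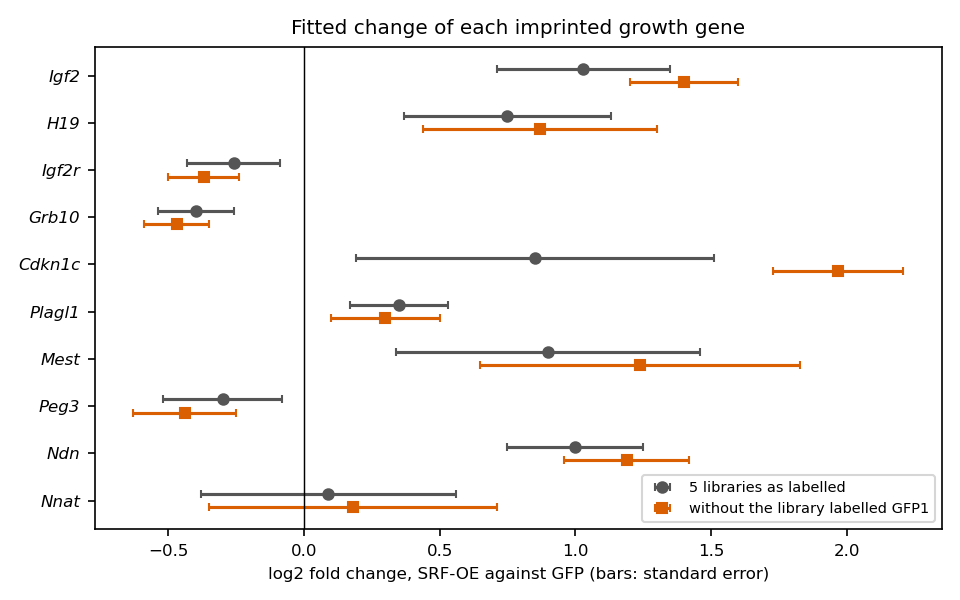
Fitted log2 fold change of SRF-OE against GFP (x axis) for each of the 10 genes (y axis), with the standard error as bars, from all 5 libraries (grey circles) and in the 4-library comparison (orange squares). Cdkn1c moves most between the fits, from 0.85 to 1.97, and the points of Peg3, Grb10 and Igf2r lie below 0 in both.

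The order of the mean levels per kb over the 5 libraries was Grb10 at 44.8 CPM per kb, Igf2r at 27.2, Mest at 14.3, Igf2 at 12.3, Ndn at 7.17, Cdkn1c at 5.73, Peg3 at 5.59, Plagl1 at 5.35, H19 at 1.68 and Nnat at 0.543. Grb10 and Igf2r did not overlap with each other or with any other member over the 5 libraries, apart from Mest, whose range of 5.31 to 30.3 CPM per kb reached into that of Igf2r. The 5 genes from Ndn to Plagl1 and Igf2 had ranges that overlapped in part, with Igf2 from 6.26 to 20.7 and Ndn from 4.01 to 11.5 CPM per kb. H19 ranged from 1.17 to 3.07 CPM per kb and overlapped only with Cdkn1c, whose lowest library was at 1.83, and Nnat lay below all others in every library.

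The widest ranges over the libraries, in log2(CPM + 0.5), were those of Mest at 2.47 and Cdkn1c at 2.15. Among 9971 genes of at least 5 CPM on average, the 5 nearest to Cdkn1c by distance between centred profiles over the 5 libraries were Lims2, S100a10, Sorbs3, Pdgfb and Fam176b, at distances from 0.246 to 0.505. Lims2, an adaptor of focal adhesions, was at 64.1 and 73.6 CPM in SRF-OE, 69.7 CPM in the library labelled GFP1, and 21.7 and 18.8 CPM in GFP replicates 2 and 3. The 5 nearest to Mest were Fam70a, Postn, Thsd1, Xdh and Trp53i11, at distances from 0.471 to 0.633. Postn, a matrix protein gene of fibroblasts, was at 96.7 and 36.7 CPM in SRF-OE, 54.8 CPM in the library labelled GFP1, and 34.7 and 26.3 CPM in GFP replicates 2 and 3. Of the other members, Igf2 was nearest to both, as the 224th gene to Cdkn1c at 1.1 and the 222nd to Mest at 1.09.

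Markers of cells other than CMs moved with some of these genes. The 10 fibroblast markers, Col1a1 and Col3a1 among them, summed to 925 and 462 CPM in SRF-OE, 500 CPM in the library labelled GFP1, and 393 and 334 CPM in GFP replicates 2 and 3. All 10 had a positive log2 fold change in both fits, with medians of 0.80 and 0.98, and Ddr2 alone was called in the 4-library comparison. The 10 endothelial markers, Pecam1 and Cdh5 among them, were highest in SRF-OE replicate 2, with a sum of 1081 CPM, and in the library labelled GFP1, with 919 CPM. They summed to 436 CPM in SRF-OE replicate 3, where GFP replicates 2 and 3 had 439 and 423 CPM. The 9 smooth muscle and pericyte markers summed to 1183 and 1015 CPM in SRF-OE replicates 2 and 3. Their sums were 1157 CPM in the library labelled GFP1, and 1544 and 2013 CPM in GFP replicates 2 and 3. Acta2 was the largest part of each sum, at 530 and 372 CPM in SRF-OE and 1017 and 1462 CPM in GFP replicates 2 and 3. Single markers mostly went the other way: 7 of the 9 had a positive and 2 a negative log2 fold change in both fits, with medians of 0.39 and 0.81. Leukocyte markers summed to between 11.5 and 36.0 CPM and epicardial markers to between 4.40 and 21.5 CPM, both highest in SRF-OE replicate 2. Schwann cell markers summed to between 2.57 and 4.74 CPM, and the erythroid list to at most 1.5 CPM with Hba-a1 and Hba-a2 at 0.

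H19 and Mest had their highest value in SRF-OE replicate 2, the library with the highest fibroblast, endothelial, leukocyte and epicardial sums, and Igf2 did too. Ndn was highest in SRF-OE replicate 3, and Cdkn1c was higher there than in SRF-OE replicate 2. The endothelial, fibroblast, leukocyte and epicardial sums of SRF-OE replicate 3 lay within the range of the GFP libraries. Its fibroblast sum was above those of GFP replicates 2 and 3. Of the fibroblast markers, Ddr2 alone was higher there than in SRF-OE replicate 2, at 15.7 against 14.1 CPM. The others were all lower there than in SRF-OE replicate 2, such as Col1a1 at 65.5 against 137 CPM. The part of other cell types in these levels was not tested. In such bulk samples, fewer cells of a type and less RNA per cell cannot be told apart.

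**Figure D3:**
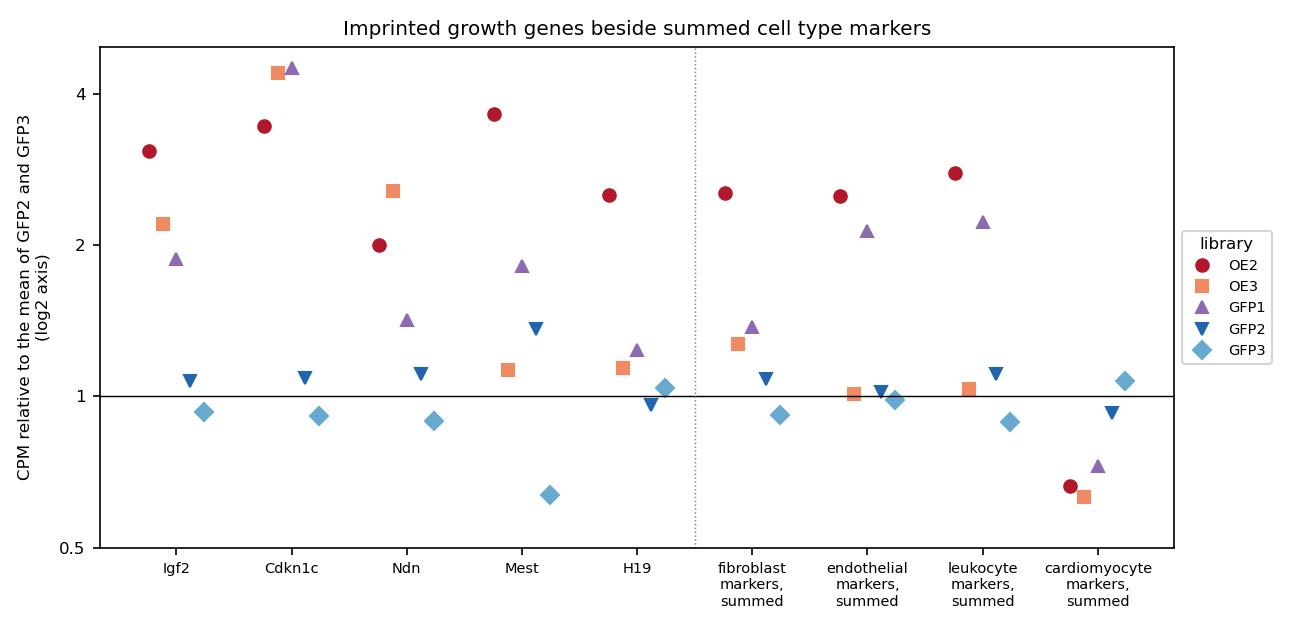
Level of 5 of the genes and of 4 summed marker lists in each library, relative to the mean of GFP replicates 2 and 3 (y axis, log2 axis), 1 point per library. SRF-OE replicate 2 has the highest points of Igf2, Mest and H19 and of the fibroblast, endothelial and leukocyte sums, whereas for Cdkn1c SRF-OE replicate 3 and the library labelled GFP1 are higher.

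Judged by Xist and a set of 4 genes on the Y chromosome, SRF-OE replicate 2 and GFP replicate 2 were female and the other 3 libraries male, so each sex has 1 SRF-OE library and cannot be tested alone. In females SRF-OE was 2.87-fold GFP for Igf2, 3.18-fold for Cdkn1c, 1.81-fold for Ndn and 2.67-fold for Mest. In males, with the library labelled GFP1 counted, it was 1.57-fold for Igf2, 1.63-fold for Cdkn1c, 2.21-fold for Ndn and 0.920-fold for Mest. Without that library the male values were 2.37-fold, 4.81-fold, 2.87-fold and 1.77-fold. Igf2 and Ndn were higher in both SRF-OE libraries than in every GFP library, so the same order within each sex follows from that and is no separate check. The male SRF-OE library had less Cdkn1c and Mest than the library labelled GFP1, and more than the other male GFP library.

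Among 57 other imprinted genes outside the Dlk1-Dio3 locus, 47 were tested with the 5 libraries, and 24 had a positive and 23 a negative log2 fold change, with a median of 0.06. In the 4-library comparison, 44 were tested, 4 were called higher and 1 lower, with a median of 0.13. The 4 were Kcnq1ot1, Airn, Peg13 and Inpp5f, of which Kcnq1ot1, Airn and Peg13 are non-coding RNAs. Peg13 was at 39.1 and 48.6 CPM in SRF-OE, 40.1 CPM in the library labelled GFP1, and 19.6 and 20.7 CPM in GFP replicates 2 and 3 (log2 fold change 1.13 in the 4-library comparison, adjusted p = 0.047, edgeR). Herc3 was the gene called lower, with 66.2 and 61.6 CPM in SRF-OE, 85.4 CPM in the library labelled GFP1, and 129 and 124 CPM in GFP replicates 2 and 3 (log2 fold change -0.98, adjusted p = 0.042). Gnas, the stimulatory G protein gene, was the most abundant of the list by CPM and ranged from 1104 to 1414 CPM.

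Of 38 genes of the IGF and insulin axis, 33 were tested, with a median log2 fold change of 0.14 in the 5-library and 0.24 in the 4-library comparison. None was called in the 5-library comparison, and in the 4-library comparison Igf1r, Igfbp6 and Trib3 were called higher and Sesn1 lower. Igfbp6 encodes a binding protein that prefers IGF2, and was at 6.18 and 7.38 CPM in SRF-OE, 1.66 CPM in the library labelled GFP1, and 0.504 and 0.631 CPM in GFP replicates 2 and 3. Its log2 fold change was 2.83 (adjusted p = 0.35) with the 5 libraries and 3.60 (SE 0.35, edgeR quasi-likelihood adjusted p = 0.042) in the 4-library comparison. In the same fit Igf1r had 0.86 (adjusted p = 0.0499), Trib3, an inhibitor of AKT signalling, 3.48 (adjusted p = 0.042), and Sesn1, a p53 target that restrains mTORC1, -0.78 (adjusted p = 0.0499). Igfbp3, Igfbp4, Igfbp5 and Igfbp7 were not called, and Igfbp5 ranged from 25.5 CPM in SRF-OE replicate 3 to 90.6 CPM in SRF-OE replicate 2.

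Igf2bp3, a fetal RNA-binding protein that binds Igf2 mRNA, was at 4.97 and 11.7 CPM in SRF-OE and from 2.68 to 4.70 CPM in GFP. Its log2 fold change was 1.25 with the 5 libraries (edgeR quasi-likelihood adjusted p = 0.35) and 1.54 in the 4-library comparison (adjusted p = 0.094). Of 11 fetal growth genes tested that are not imprinted, such as Igf2bp3, Mycn and Ezh2, 9 had a log2 fold change above 0 in the 5-library comparison, and none was called in either comparison. Their median was 0.32 in the 5-library and 0.33 in the 4-library comparison. Within the Dlk1-Dio3 locus, Meg3 was at 123 and 259 CPM in SRF-OE, 67.1 CPM in the library labelled GFP1, and 2.75 and 2.84 CPM in GFP replicates 2 and 3.

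**Figure D4:**
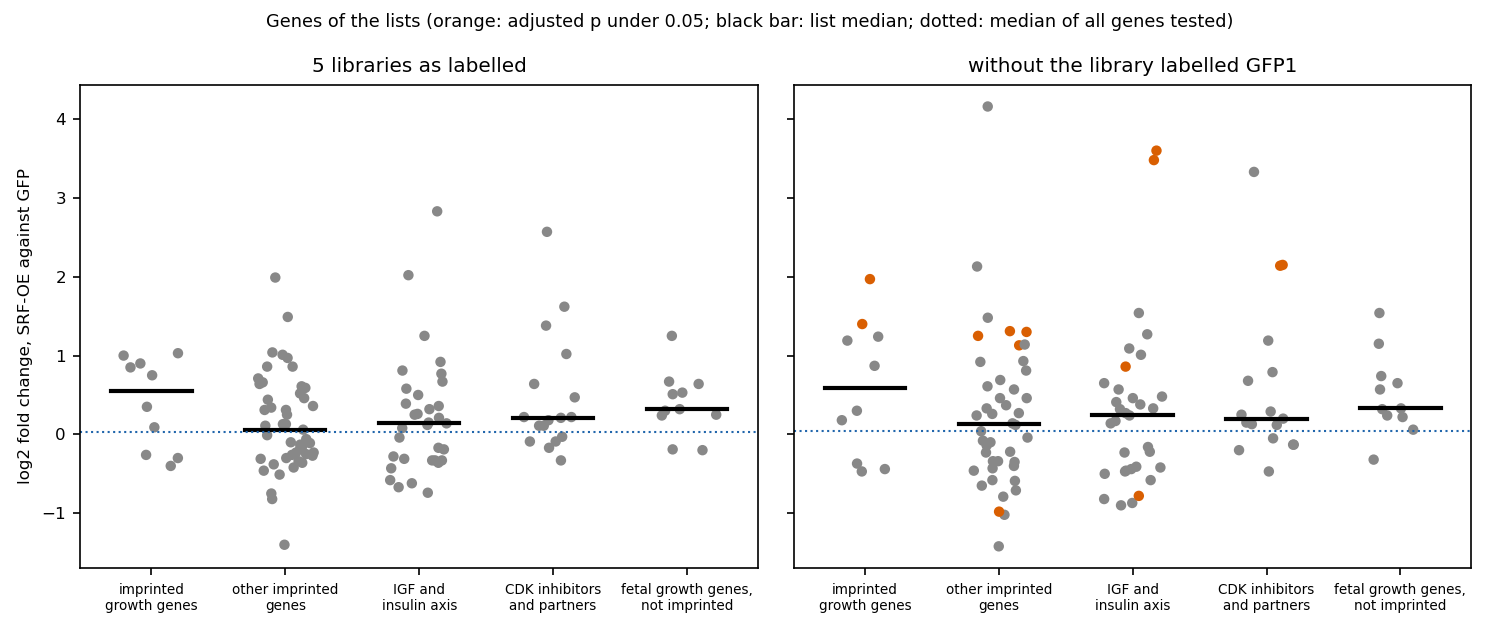
Log2 fold change of SRF-OE against GFP (y axis) for each tested gene of 5 lists (x axis), with the 5 libraries (left) and in the 4-library comparison (right). Orange marks an adjusted p under 0.05, black bars the list medians and dotted lines the medians of all genes tested, at 0.03 and 0.04. The 10 imprinted growth genes have medians of 0.55 and 0.59 and 2 orange points on the right.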

How the data were processed

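RNA-seq counts of SRF-OE and GFP CMs sorted at P14 were analysed. The authors aligned single-ended reads to mm10 with STAR 2.5.3a, counted them per gene with featureCounts of Subread 1.5.2 and deposited the raw counts without normalization (tool versions from the submitters' processing notes). Gene lengths in bp fill the other deposited column, whose heading names SRF-OE replicate 1: it has 0 zeros, and 67.9% of 20635 genes lie within 5% of the exon length of their RefSeq-matched GENCODE transcripts. Columns were assigned by name, which leaves 5 libraries for the tests, but the names may be displaced by 1 column, which would make the groups 3 SRF-OE and 2 GFP libraries.

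Genes kept by filterByExpr were fitted with glmQLFit and tested with glmQLFTest after TMM scaling (edgeR 4.0.16, R 4.3.3), with Benjamini-Hochberg adjustment over all genes tested and a cutoff of 0.05. The standard error is the log2 fold change divided by the square root of the F value. Alternatives were DESeq2 1.42.0 with a filtering target of 0.05, other scalings and filters, the replicate number as a block, and leaving out libraries. The labels do not say how many animals each library holds. Both groups hold libraries of either sex by Xist and Y-linked genes, so not all libraries of a group share an animal. Positions are GRCm38 (GENCODE M21), the build of mm10.

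The 10 genes, all lists and the rules for named genes (all members, Srf, up to 6 genes per list with an adjusted p under 0.05 in either comparison, the genes around H19 and Igf2, and nearest profiles) were chosen with earlier results of these data known. Grb14, Igfbp5, Igf2bp3, Copg2, Blcap and other list genes without a call were named after their values were seen.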

Additional observations from a re-analysis of the deposited data

How the results depend on the processing

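With 2 SRF-OE libraries, the calls rest on few samples and on the library labelled GFP1. In the 5-library comparison edgeR called 0 genes (1917 at an unadjusted p under 0.05, smallest adjusted p 0.35), and this held under the other scalings and count filters tried. DESeq2 gave an adjusted p there to only 1079 of 21566 genes, and to only 2 of the 10 members. Among those 1079 it called 11 genes higher and 213 lower. The replicate block called 582 genes higher (4.23%) and 432 lower (3.14%), with 4 members higher (Igf2, Cdkn1c, Mest and Ndn) and an Srf log2 fold change of 2.78. No SRF-OE library compared shares the number of the library labelled GFP1, so in that fit it adds nothing to the estimated difference. In effect the block leaves that library out, and its calls are descriptions only, like those of the 4-library comparison. Deviations of same-numbered libraries correlated across genes at 0.396 for number 2 and -0.074 for number 3, and at 0.224 without the library labelled GFP1. Same-numbered libraries also shared sex, but only 2 numbers are shared and the headings may be displaced, so the numbers were not taken as pairs. Among the 5 comparisons that each left out 1 library, genes called higher ranged from 0 to 265 and lower from 0 to 130, and members called higher from 0 to 2, all calls coming without the library labelled GFP1. The Srf log2 fold change ranged there from 1.13 to 2.87 and the members' median from -0.05 (without SRF-OE replicate 2) to 0.61, Mest from -0.18 to 1.5 and Nnat from -0.17 to 0.33. A lone SRF-OE library was assumed to vary like GFP. In the 4-library comparison, genes higher and lower were 853 and 833 by DESeq2, 330 and 206 with its size factors in edgeR, 1660 and 1303 without a count filter, 55 and 9 when every library needed 10 counts, and 547 and 392 (4.08% and 2.93%) with the replicate block. Genes with an adjusted p numbered 13521, 13397, 21407, 12142 and 13397 in that order, so the counts of calls have unlike bases. Members called higher were 3, 3, 4, 1 and 4 in the same order. Grb10 was the 1 member lower, without a count filter, where 1303 of 21407 genes were lower. Srf had 2.87, 2.86, 2.87, 2.89 and 2.78. The members' median was 0.89 when every library needed 10 counts, which drops Nnat. Of 158 values of single members under 16 alternatives, 134 were counted as keeping direction and side of the cutoff, 22 passed it in addition and 2 reversed. The 134 include members without an adjusted p from DESeq2 in the 5-library comparison. These kept direction, but their side of the cutoff could not be judged. The causes were not tested, apart from the gene a filter drops.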

Other observations

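Of 10 genes tied to Ndn and Peg3 through the p53 pathway or the MAGE family, 7 were tested, 5 with a positive log2 fold change and none called in either comparison. Bax, an effector of cell death, was at 43.1 and 60.3 CPM in SRF-OE and at 38.5, 28.1 and 24.5 CPM in GFP replicates 1, 2 and 3, with a log2 fold change of 0.77 in the 5-library comparison (edgeR adjusted p = 0.35) and 0.98 in the 4-library comparison (edgeR adjusted p = 0.0565). Maged1, a MAGE gene that is not imprinted, was at 287 and 441 CPM in SRF-OE and from 249 to 321 CPM in GFP, with overlapping groups.

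Of 11 genes tested from a list of known SRF targets and cofactors with Srf itself, none was called in the 5-library comparison. Srf set aside, Tagln was called higher and Acta2 lower without the library labelled GFP1. Tagln, a smooth muscle actin-binding protein gene, was at 36.2 and 83.4 CPM in SRF-OE, 20.2 CPM in the library labelled GFP1, and 6.14 and 10.0 CPM in GFP replicates 2 and 3. In the same fit 9 smooth muscle and pericyte markers, Tagln and Acta2 among them, had a median log2 fold change of 0.81.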
